A study of Homo sapiens with 12 samples.

Results

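The replication-dependent histone genes were described across 12 RNA sequencing libraries of U2OS cells, a line from a human osteosarcoma. Members were the genes whose symbol in the raw count table is H2A, H2B, H3 or H4 followed by C and a cluster number, or H1-1 to H1-6. This gave 64 genes of the 58735 in the table, comprising 6 linker histone H1 genes, 16 H2A, 17 H2B, 11 H3 and 14 H4 genes. The cells were treated for 24 h with 10 µM TH10785, with 10 µM PNKP1i, with 10 µM of each compound together (the combination), or with the solvent DMSO, and each group had 3 libraries. TH10785 activates OGG1, the enzyme that cuts oxidised guanine out of DNA at the start of base excision repair. PNKP1i is the labels' name for the other compound, whose structure is not given in the labels. The series record spells the first compound TH10587 and the sample labels TH10785, which is used here.

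Histones are the proteins around which DNA is wound. H2A, H2B, H3 and H4 form the core of the nucleosome, and H1 binds the linker DNA between cores. The replication-dependent genes lie in clusters, most lack introns, and their transcription peaks in S phase, when new DNA has to be packaged. Their messenger RNAs typically end in a conserved stem-loop in place of a poly(A) tail. The stem-loop is bound by SLBP, the protein that guides cleavage by the U7 small nuclear ribonucleoprotein and later translation and decay, while some of the same genes also give polyadenylated transcripts from sites further downstream. NPAT, a substrate of cyclin E and CDK2, works in the nuclear bodies where these genes are transcribed. The sources used here do not say whether these libraries were made from poly(A)-selected RNA.

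All 64 members had a position in GENCODE 29 on GRCh38, 53 on chromosome 6 and 11 on chromosome 1. A match to the histone stem-loop consensus was found in the annotated transcript of 27 members, in 5 versions. They are shown because the versions differ by family and because the values below are read against them. Each line gives 1 member with the 16-base stem-loop in capitals and its flanks in lower case.

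H2AC6: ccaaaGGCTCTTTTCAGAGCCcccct

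H2AC11: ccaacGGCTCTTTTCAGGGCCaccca

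H2BC5: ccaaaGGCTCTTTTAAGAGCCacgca

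H4C8: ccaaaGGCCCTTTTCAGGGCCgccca

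H4C9: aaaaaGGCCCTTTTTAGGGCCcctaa

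The version of H2AC6 was also the one in H2BC21 and H3C10, and both versions that start with GGCCC were found only in H4 members. H2BC4 and H2BC7 carried the version of H2BC5. The annotated transcript runs on after the stem-loop by 1128 bases in H2AC6, 1761 in H2AC11, 39 in H2BC5, 1655 in H4C8 and 212 in H4C9. H1-2, H2BC12 and H2AC20 have annotated transcripts of 642, 381 and 390 bases that hold no stem-loop, so their annotation stops at or near the coding part.

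Promoter windows of 300 bases, from 250 before to 50 after the start, were taken from RefSeq (GRCh38.p14) and matched 59 of the 64 members. The windows of 5 members are shown, 1 for the most counted gene of the H1, H3 and H4 families and a pair from the H2B family, because the promoter elements differ by family. Capitals mark the CCAAT box (CCAAT), the TATA box (TATAAA), the octamer (ATTTGCAT, bound by POU2F1), the core of the H4 site II element (GGTCCG, bound by HINFP) and the H1 box (AAACACA), searched on both strands, and where 2 of them overlap they form 1 run of capitals.

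H1-2, chr6:26056421-26056720, minus strand: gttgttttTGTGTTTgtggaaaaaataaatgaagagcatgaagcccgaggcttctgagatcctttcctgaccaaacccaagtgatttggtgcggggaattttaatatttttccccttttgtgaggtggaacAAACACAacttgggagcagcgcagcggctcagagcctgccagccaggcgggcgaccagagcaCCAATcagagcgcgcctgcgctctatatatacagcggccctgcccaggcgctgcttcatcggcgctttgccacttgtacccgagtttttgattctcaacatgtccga

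H2BC12, chr6:27146809-27147108, minus strand: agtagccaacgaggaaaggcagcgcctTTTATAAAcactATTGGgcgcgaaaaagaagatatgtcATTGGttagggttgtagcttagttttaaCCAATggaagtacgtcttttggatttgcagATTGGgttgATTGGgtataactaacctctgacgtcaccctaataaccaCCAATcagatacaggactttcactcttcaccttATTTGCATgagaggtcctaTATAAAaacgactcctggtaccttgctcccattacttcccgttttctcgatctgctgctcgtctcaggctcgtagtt

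H2BC21, chr1:149886633-149886932, minus strand: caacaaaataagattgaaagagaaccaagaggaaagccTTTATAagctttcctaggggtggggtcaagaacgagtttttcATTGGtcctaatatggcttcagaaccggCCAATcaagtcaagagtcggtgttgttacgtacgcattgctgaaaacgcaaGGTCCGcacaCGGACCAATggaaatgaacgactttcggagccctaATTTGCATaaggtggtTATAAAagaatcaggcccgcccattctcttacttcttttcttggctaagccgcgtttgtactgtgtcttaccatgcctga

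H3C10, chr6:27809801-27810100, plus strand: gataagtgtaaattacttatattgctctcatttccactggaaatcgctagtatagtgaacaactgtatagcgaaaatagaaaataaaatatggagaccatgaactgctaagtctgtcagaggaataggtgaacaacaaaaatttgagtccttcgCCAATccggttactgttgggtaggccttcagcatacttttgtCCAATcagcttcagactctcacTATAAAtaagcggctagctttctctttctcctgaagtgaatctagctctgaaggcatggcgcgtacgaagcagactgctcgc

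H4C9, chr6:27139032-27139331, plus strand: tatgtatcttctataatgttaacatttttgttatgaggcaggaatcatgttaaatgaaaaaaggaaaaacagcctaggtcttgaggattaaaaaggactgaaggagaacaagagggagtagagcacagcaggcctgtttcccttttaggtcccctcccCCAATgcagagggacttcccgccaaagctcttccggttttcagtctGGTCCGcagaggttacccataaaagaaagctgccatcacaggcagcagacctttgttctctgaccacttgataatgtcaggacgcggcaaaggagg

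A CCAAT box was present in every matched H1, H2A, H2B and H3 window and in 25% of the 12 H4 windows, against 35.7% of the first window of all 27305 genes in the table. The octamer was found in 73.3% of H2A and 82.4% of H2B windows, in none of H1 and H4, and in 1.8% of all windows. Windows of H2A and H2B neighbours with starts close together overlap, so the same octamer can be counted in both families. The H4 site II core was found in 91.7% of H4 windows and in 11.2% of all windows, and the H1 box in all 6 H1 windows and in 5.76% of all windows. TATAAA was found in 67.8% of the members' windows and in 12% of all windows. These are matches of letters and say nothing of binding. The RefSeq start of H4C9 lies 694 bases inside the GENCODE gene, so its window differs from the sequence before the GENCODE start. The window matched to H3C4 is the same as that of H2AC7 and lies outside the GENCODE gene of H3C4. It is therefore counted in both the H2A and the H3 shares.

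Total counts ran from 16225339 to 21546369 per library, at which 3 counts correspond to 0.136 to 0.184 CPM (counts scaled to a common library size, with edgeR's TMM correction for library composition). Of 6 markers of the labelled origin, VIM, COL1A1, SPARC, RUNX2 and ALPL were present in every library, at 2.69 CPM or more, while COL1A2 was at 0.538 CPM or less. With both compounds VIM, COL1A1, SPARC and RUNX2 fell, by 0.59 to 1.27 on the log2 scale, and ALPL, an enzyme of bone-forming cells, rose by 1.47. ALPL also rose with TH10785 alone, by 1.82. Of the markers of other cell types, PTPRC (leukocytes) and ALB (hepatocytes) were at 0.366 CPM or less, while EPCAM, CDH1 and PECAM1 were present at 0.428 to 4.03 CPM. The combination libraries stood apart by base composition: against the DMSO mean, the median log2 level of genes under 40% GC was 0.46 to 0.8 in the 3 combination libraries, and that of genes with 60% GC or more was -0.37 to -0.34. The tested histone members span 39.5 to 64.1% GC with a median of 49.1%. TH10785 replicate 3 departed from the other TH10785 libraries in the opposite sense, with -0.63 for genes under 40% GC. The part of base composition in the histone values was not tested beyond the fit with GC and length offsets, in which 19 members were called lower with both compounds.

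Detection was uneven among the members. Of the 64, 26 had a summed count of 120 or more over the 12 libraries, 24 had fewer but at least 1, and 14 had 0. H2AC8 lay just inside that limit with 120 counts, and H3C6 and H2AC21 lay just outside with 118 and 115. The 26 comprised 2 H1 members, 6 H2A, 9 H2B, 2 H3 and 7 H4. The 14 at 0 were H1-5, H2AC1, H2AC15, H2AC16, H2BC9, H2BC10, H3C4, H3C7, H3C8, H3C11, H3C12, H4C6, H4C7 and H4C13, and a count of 0 at this depth limits the reads assigned to the gene, not its transcription. The annotated transcript held a stem-loop in 18 of the 26 members with 120 counts or more, in 7 of the 24 with fewer and in 2 of the 14 at 0. Median transcript lengths were 1073, 436.5 and 403.5 bases in the same 3 classes. H2AC15 lies wholly within exons of H2BC15 on the other strand, where reads counted without regard to strand could be ascribed to neither gene alone.

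Most counts of each family came from few genes, with the H2B counts the most spread. H1-2 (chr6:26055787-26056428, minus strand), a linker histone, took 99.4% of the H1 counts. H2AC6 (chr6:26124145-26139116, plus strand) took 87% of the H2A counts, and H3C10 (chr6:27810064-27811300, plus strand) 69% of the H3 counts, with 24% for H3C1. H4C9 (chr6:27138588-27139881, plus strand) took 78.7% of the H4 counts and H4C8 14.2%. In the H2B family H2BC12 (chr6:27146418-27146798, minus strand) held 66.6%, H2BC21 14.5% and H2BC11 10.3%. These are shares of counts, not levels per length. Per kilobase of annotated transcript, H2BC12 and H1-2 were the highest members in the DMSO libraries, at 1309 ± 57.2 and 1024 ± 89.8 CPM per kb (SD, n = 3), followed by H4C9 at 135.4 ± 14.1 CPM per kb. Both annotated lengths hold little beyond the coding part, and the reads are divided by that short length.

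Every window of 150 bases, the length of 1 read, was found in no other annotated transcript for 49 of the 64 members, among them H1-2, H2AC6, H2BC12, H2BC21, H2BC11, H3C10, H4C9 and H4C8. H4C14 and H4C15 had no unique window, so their counts depend on how the authors' counting placed reads that match both copies. H2AC19 had 3.6% unique windows and H4C11 27.2%. Of the exonic bases of H2BC6, 28.2% are shared with another annotated gene. H3 genes known to GENCODE as HIST1H3B and HIST1H3C carry no symbol in the table and are outside the rule. HIST1H3B had a summed count of 488 and HIST1H3C of 0.

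With both compounds, the summed level of histone reads was 32.9% of that in DMSO cells for H1, 32.8% for H2B and 33.6% for H4. It was 39.3% for H3 and 43.2% for H2A. Reads from stem-loop and from polyadenylated transcripts were not told apart, so these values need not hold for all histone RNA. Summed over all members, the level was 609.6 ± 189 CPM with both compounds and 1797 ± 51.4 CPM with DMSO (SD, n = 3 each), a difference of -1.56 on the log2 scale. As a share of all counts in a library, histone members made up 0.0477, 0.0866 and 0.0689% with both compounds, against 0.187, 0.173 and 0.17% with DMSO. With TH10785 alone the share was 0.189, 0.192 and 0.189%, and with PNKP1i alone 0.147, 0.144 and 0.153%. In bulk RNA, fewer cells in S phase and less histone RNA per cell cannot be told apart. Because it is not known whether poly(A) RNA was selected, a change in the polyadenylated share cannot be told apart from either.

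Summed H1 levels were 138, 311 and 203 CPM with both compounds and 727, 635 and 620 CPM with DMSO, a log2 ratio of means of -1.60, carried almost wholly by H1-2. Summed H2B levels were 180, 298 and 249 CPM with both compounds and 721, 754 and 742 CPM with DMSO, a log2 ratio of -1.61. The H4 family had 52.2, 87.1 and 80.8 CPM with both compounds and 199.9, 226 and 229.6 CPM with DMSO (-1.575). The ranges of both groups were far apart in all 3 families. The H3 family, the least counted, had 2.57, 6.25 and 5.11 CPM with both compounds and 10.7, 12.3 and 12.4 CPM with DMSO (-1.35). The H2A family had 47.6, 95.6 and 73.5 CPM with both compounds and 193, 164 and 145 CPM with DMSO (-1.21). The H2A ratio was the nearest to 0 of the families, and here too no combination library reached the lowest DMSO library. Without the highest member of each family the ratios were -0.572 for H1, -0.607 for H2A, -1.534 for H2B, -0.548 for H3 and -1.203 for H4, in another order. The differences between families were not tested.

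The single compounds moved the sum over all members little, up with TH10785 and down with PNKP1i. With TH10785 the summed level was 1994 ± 151 CPM and with PNKP1i 1557 ± 82.7 CPM (SD, n = 3 each), against the DMSO value given above. TH10785 gave 218, 232 and 212 CPM for H2A against 193, 164 and 145 CPM with DMSO, a log2 ratio of 0.40 with no overlap. PNKP1i gave 617, 553 and 623 CPM for H2B against 721, 754 and 742 CPM with DMSO (-0.31, no overlap), and 188, 160 and 186 CPM for H4 against 199.9, 226 and 229.6 CPM with DMSO (-0.30, no overlap). H3 was also without overlap with TH10785, at 14.34, 12.42 and 13.81 CPM, against 10.71, 12.34 and 12.36 CPM with DMSO, so that its lowest library lay just above the highest DMSO library. H1 overlapped DMSO with either compound. All 3 comparisons share the DMSO libraries.

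**Figure D1:**
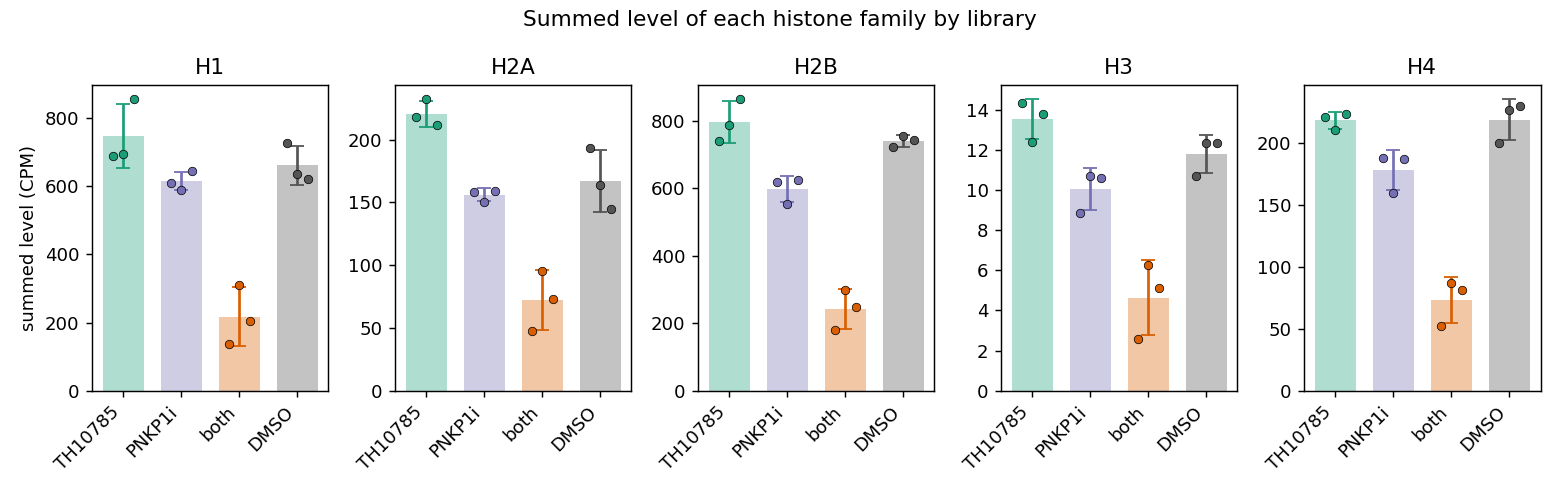
Summed level in CPM of the H1, H2A, H2B, H3 and H4 members in each library (points), with the group mean (bar) and SD (error bar, n = 3), for TH10785, PNKP1i, both compounds and DMSO. Each panel has its own axis from 0; the 3 libraries given both compounds are the lowest in every panel, with means of 217 CPM for H1 and 242 CPM for H2B, against 661 and 739 CPM with DMSO.

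Of the 64 members, 33 had enough counts to enter the edgeR quasi-likelihood test fitted over 17290 genes, comprising 2 H1, 10 H2A, 9 H2B, 3 H3 and 9 H4 members. A gene is called at a Benjamini-Hochberg adjusted p under 0.05 over all tested genes. With both compounds against DMSO, 18 of the 33 were called lower, where the background was 19.7% of all tested genes, and 0 higher, where the background was 21.3%. No member was higher at an unadjusted p under 0.05 either, and DESeq2 and limma-voom also called 0 higher, with 18 and 19 lower. The median log2 fold change was -1.19 over the tested members and 0.045 over all tested genes. In 20 members every combination library was below every DMSO library, where the background was 25.2%, and in 0 above, where it was 28.4%. For 7 tested members (H2AC4, H2AC8, H2AC14, H2AC18, H2AC19, H4C1 and H4C3) no combination library was over the filter's minimum, so these entered the test through the other groups. Leaving them out, 16 of 26 were called lower.

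By family, 1 of 2 tested H1 members, 4 of 10 H2A, 8 of 9 H2B, 1 of 3 H3 and 4 of 9 H4 members fell with both compounds. Among all tested genes 19.7% were called lower, and the H1 and H3 counts rest on few tested members. Of the H2A members called, H2AC8 and H2AC19 had no combination library over the filter's minimum. The calls include the most counted member of each family. Without combination replicate 1, the number called lower was 12, and H2AC11, H2AC8, H2BC7, H2BC8, H4C14 and H4C15 were no longer called.

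H1-2 had 137, 308 and 201 CPM with both compounds, against 724, 632 and 617 CPM with DMSO. All 3 combination libraries lay below all DMSO libraries. H1-2 fell by 1.61 on the log2 scale (SE 0.207, edgeR adjusted p = 3.074e-05). H1-4, a second linker histone at far lower counts, had 1.45, 2.52 and 1.90 CPM with both compounds and 2.69, 2.26 and 3.10 CPM with DMSO, with overlap and no call (-0.46, SE 0.266, edgeR adjusted p = 0.179).

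Among the H2A genes, H2AC6 had 39.4, 79.1 and 59.9 CPM with both compounds, against 171, 145 and 127 CPM with DMSO. The groups did not overlap, and H2AC6 fell by 1.31 (SE 0.182, edgeR adjusted p = 5.884e-05). H2AC11 had 4.55, 8.24 and 8.01 CPM with both compounds and 12.8, 10.9 and 10.3 CPM with DMSO, and fell by 0.71 (SE 0.203, edgeR adjusted p = 0.0111). H2AC20 had 2.32, 5.57 and 2.44 CPM with both compounds and 4.85, 2.26 and 2.84 CPM with DMSO, with overlap (0.05, SE 0.342, edgeR adjusted p = 0.913). H2AC13 had 0.242, 0.824 and 0.679 CPM with both compounds and 0.957, 1.28 and 1.499 CPM with DMSO, without overlap, and just missed the threshold (-1.09, SE 0.432, edgeR adjusted p = 0.0521). H2AC19 fell by 2.71 (SE 0.663, edgeR adjusted p = 0.00415) and H2AC8 fell by 1.57 (SE 0.543, edgeR adjusted p = 0.0286), both on few reads, with 1 to 3 counts of H2AC19 in each combination library and 4 to 16 in each DMSO library.

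Of the 9 tested H2B members, 8 fell. H2BC12 had 123, 196 and 158 CPM with both compounds, against 474, 509.5 and 513 CPM with DMSO, and fell by 1.65 (SE 0.149, edgeR adjusted p = 1.996e-06). H2BC21, from the chromosome 1 cluster, had 26.3, 37.9 and 41.5 CPM with both compounds and 96.7, 104 and 118.6 CPM with DMSO, and fell by 1.59 (SE 0.145, edgeR adjusted p = 1.996e-06). H2BC11 had 12.6, 28.8 and 18.5 CPM with both compounds and 87.2, 78.0 and 54.1 CPM with DMSO, and fell by 1.87 (SE 0.229, edgeR adjusted p = 1.968e-05). In all 3 genes the highest combination library was below the lowest DMSO library. H2BC5 had 10.4, 24.8 and 20.2 CPM with both compounds and 39.6, 38.7 and 36.0 CPM with DMSO. H2BC5 fell by 1.04 (SE 0.209), H2BC4 by 1.73 (SE 0.246), H2BC7 by 1.10 (SE 0.350), H2BC8 by 0.996 (SE 0.328) and H2BC6 by 1.85 (SE 0.419), with edgeR adjusted p-values from 7.301e-05 to 0.0228. H2BC4, H2BC5 and H2BC7, which share 1 stem-loop version, thus had folds between -1.73 and -1.04. The member that was not called was H2BC15, with 3.15, 2.62 and 2.08 CPM with both compounds and 3.11, 4.15 and 1.98 CPM with DMSO (-0.23, SE 0.278, edgeR adjusted p = 0.533).

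H3C10 had 1.11, 3.88 and 3.30 CPM with both compounds, against 8.14, 9.77 and 9.26 CPM with DMSO, without overlap. It fell by 1.71 (SE 0.287, edgeR adjusted p = 0.000272). H3C1 had 1.07, 1.75 and 1.31 CPM with both compounds and 1.97, 1.65 and 2.57 CPM with DMSO, which overlapped in 1 library (-0.59, SE 0.280, edgeR adjusted p = 0.1004). H3C6 overlapped as well, at 0.339, 0.485 and 0.452 CPM with both compounds and 0.598, 0.733 and 0.321 CPM with DMSO (-0.35, SE 0.577, edgeR adjusted p = 0.652). HIST1H3B, the H3 gene without a symbol, had 0.290, 1.02 and 1.31 CPM with both compounds and 2.45, 3.18 and 1.93 CPM with DMSO, and fell by 1.51 (edgeR adjusted p = 0.00982).

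H4C9 had 39.3, 64.3 and 60.2 CPM with both compounds, against 154, 187 and 185 CPM with DMSO, and fell by 1.68 (SE 0.161, edgeR adjusted p = 2.681e-06). H4C8 had 9.10, 13.1 and 13.9 CPM with both compounds and 29.4, 26.5 and 33.0 CPM with DMSO, and fell by 1.299 (SE 0.171, edgeR adjusted p = 3.862e-05). Neither gene had any overlap between the groups. H4C14 had 1.55, 4.80 and 2.99 CPM with both compounds and 8.92, 8.25 and 6.26 CPM with DMSO. H4C14 and H4C15, which share all their read-length windows with other transcripts, fell by 1.32 (SE 0.442, edgeR adjusted p = 0.0243) and 1.47 (SE 0.458, edgeR adjusted p = 0.0175). H4C5, at 1.40, 2.52 and 1.54 CPM with both compounds and 2.93, 1.53 and 2.14 CPM with DMSO (-0.27, SE 0.291), and H4C11 (-0.10, SE 0.553) were not called. Both carry the same stem-loop version as H4C8, on summed counts of 532 and 162 against 5346 for H4C8. A link between stem-loop version and fold change was not tested.

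**Figure D2:**
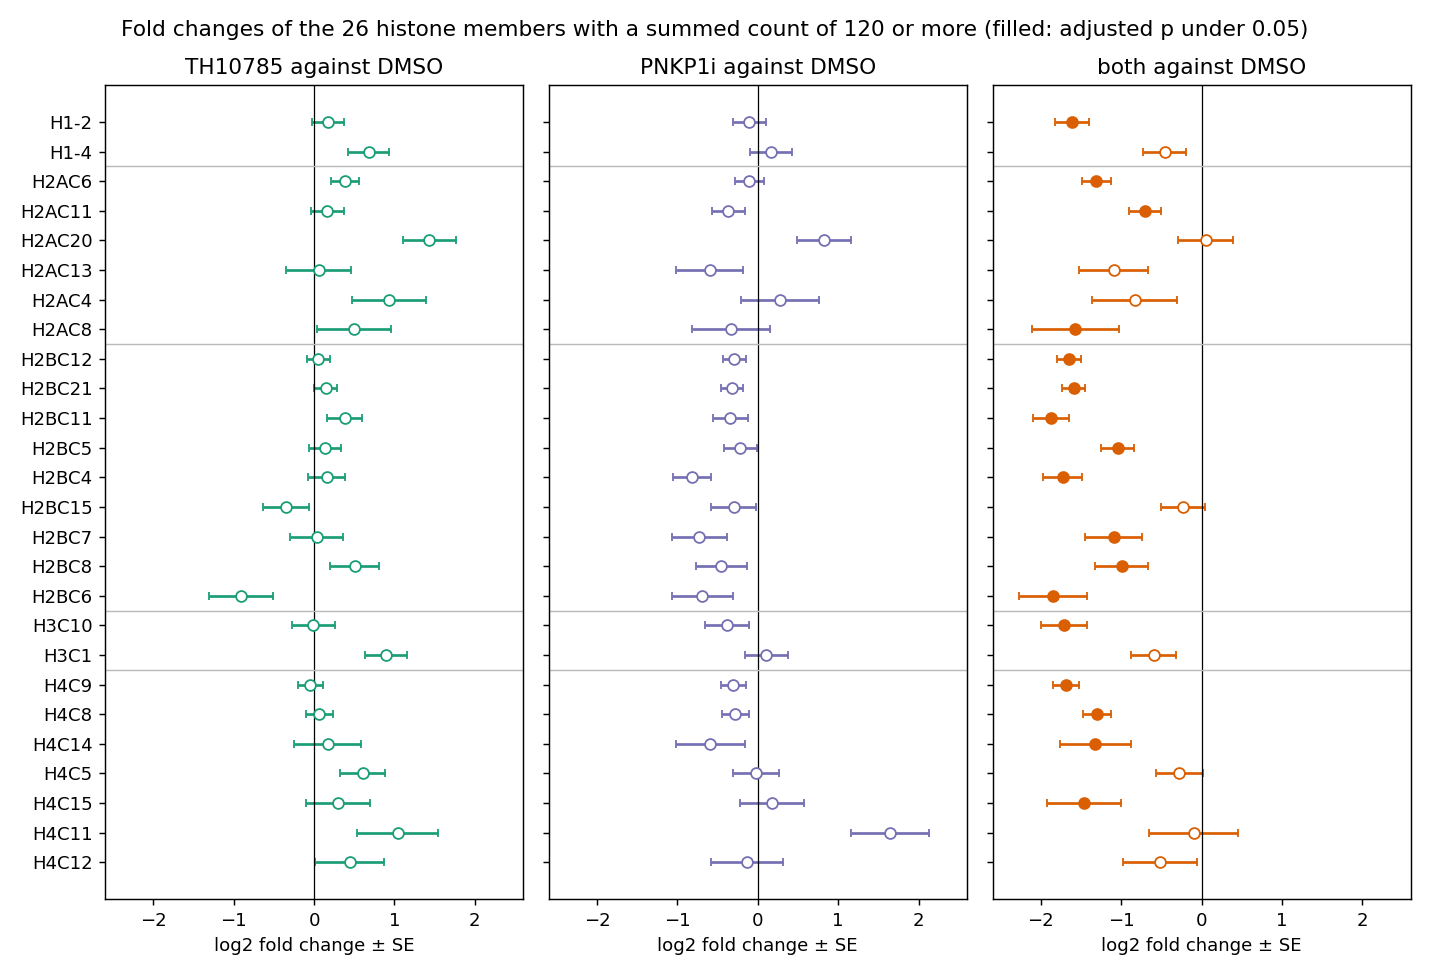
Log2 fold change with its standard error of the 26 members with a summed count of 120 or more, for TH10785, PNKP1i and both compounds against DMSO, grouped by family; filled points have an adjusted p under 0.05. No point is filled for either single compound, and 17 are filled for both compounds, with H2AC20 at 0.05 the highest of that panel.

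The combination libraries differed among themselves. Over the 26 members, the median log2 level relative to the DMSO mean was -1.96 in combination replicate 1, -0.78 in replicate 2 and -1.02 in replicate 3. Replicate 1 was the lowest of the 3 combination libraries in 23 of the 26 members and the lowest of all 12 libraries in 20. Replicate 2 was the highest of the 3 in 19 members. By family sum the order was the same in every family. The median of replicates 2 and 3 was still below that of any other library.

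**Figure D3:**
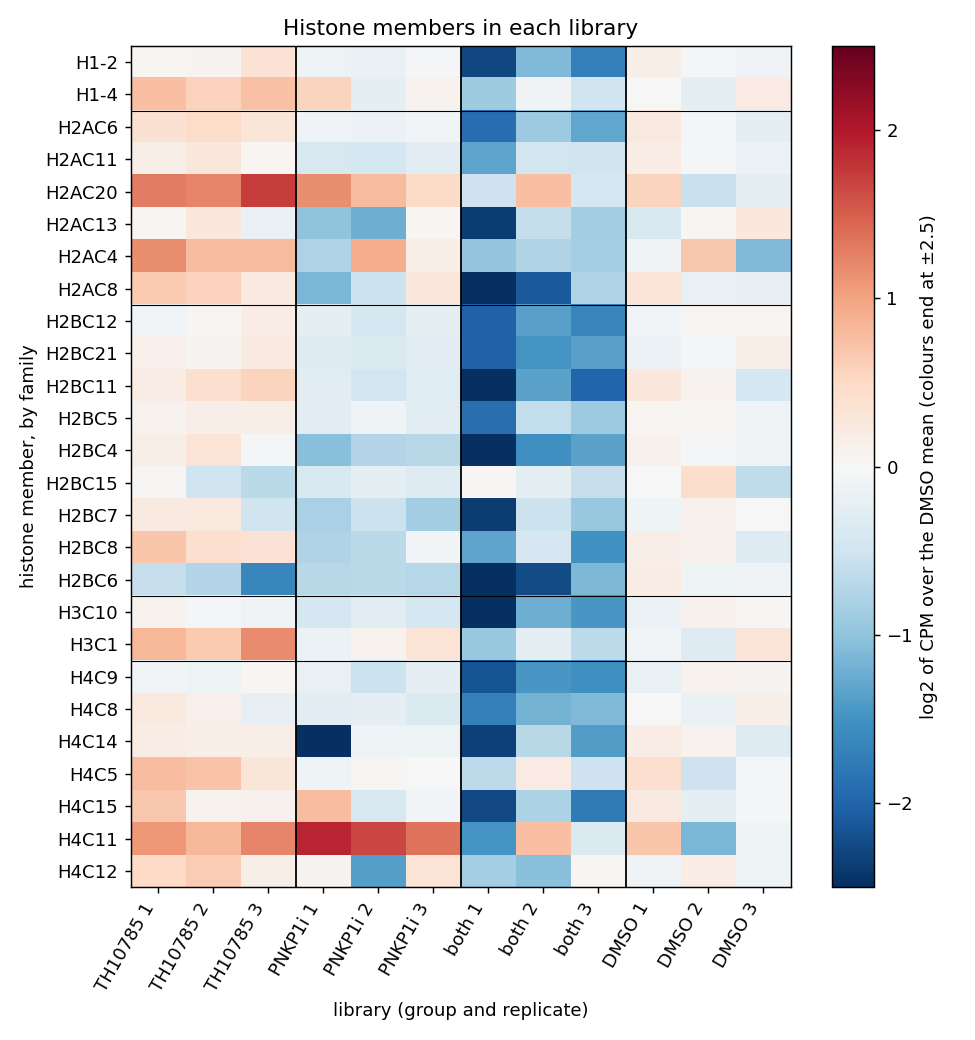
Log2 of CPM over the DMSO mean for the 26 members (rows, by family) in the 12 libraries (columns), blue for lower and red for higher. The combination libraries are blue in most rows, with medians of -1.96, -0.78 and -1.02, and the rows of H2AC20 and H4C11 are red in the libraries of both single compounds.

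With TH10785 alone, 0 of 33 members were called in either direction, where the background was 0.515% of all tested genes for higher and 0.0463% for lower. At an unadjusted p under 0.05, edgeR had 5 members higher and 1 lower, beside 2445 of all 17290 tested genes in either direction. At an adjusted p under 0.05, limma-voom called 0 members and DESeq2 called 1 higher. Of the 33 members, 8 had every TH10785 library above every DMSO library, where the background was 9.64%, and 1 had every library below, where it was 10%. H2AC20 had the largest difference, with 8.09, 7.76 and 10.99 CPM with TH10785 and 4.85, 2.26 and 2.84 CPM with DMSO (1.43, SE 0.331, edgeR adjusted p = 0.0677). H3C1 had 3.68, 3.26 and 4.66 CPM with TH10785 and 1.97, 1.65 and 2.57 CPM with DMSO (0.90, SE 0.261, edgeR adjusted p = 0.142). For both genes the TH10785 libraries lay above all DMSO libraries, and neither passed the threshold. Among the most counted genes, H1-2 had 684, 689 and 849 CPM with TH10785, which overlapped DMSO (0.17, SE 0.202), and H2BC12 had 473, 512 and 567.5 CPM, also with overlap (0.05, SE 0.145). H2AC6 had 191, 204 and 182 CPM with TH10785, above all DMSO libraries and not called (0.38, SE 0.178, edgeR adjusted p = 0.341). H3C10 and H4C9 stood at -0.01 (SE 0.268) and -0.05 (SE 0.156).

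With PNKP1i alone, 0 of 33 members were called in either direction, where the background was 0.174% for higher and 0.0231% for lower. At an unadjusted p under 0.05, edgeR had 2 members higher and 2 lower, beside 1957 of all 17290 tested genes in either direction. At an adjusted p under 0.05, DESeq2 and limma-voom called 0 members. All 9 tested H2B members had a log2 fold change below 0, from -0.81 to -0.22, where the median over all tested genes was -0.019. In 6 of the 9, all PNKP1i libraries lay below all DMSO libraries. Over all 33 members this was so in 9, where the background was 14.2%, and all PNKP1i libraries lay above in 1, where it was 11.7%. H2BC4 had 6.65, 8.18 and 8.49 CPM with PNKP1i and 14.7, 13.5 and 12.9 CPM with DMSO (-0.81, SE 0.237, edgeR adjusted p = 0.266). H4C11 had 1.52, 1.29 and 1.04 CPM with PNKP1i and 0.658, 0.183 and 0.375 CPM with DMSO, higher without overlap on 21 to 27 and 3 to 11 counts (1.64, SE 0.485, edgeR adjusted p = 0.266). The most counted genes were not called either. H1-2 had 605, 588 and 641 CPM with PNKP1i, overlapping DMSO (-0.11, SE 0.202), and H2AC6 had 138, 133 and 141 CPM, also with overlap (-0.11, SE 0.178). H2BC12 had 426, 368 and 428 CPM with PNKP1i, below all DMSO libraries (-0.29, SE 0.145, edgeR adjusted p = 0.459). H4C14 held 21 counts in PNKP1i replicate 1, against 132 and 145 in the other PNKP1i libraries.

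The combination was also set against each single compound. Against TH10785, 25 of 33 members were called lower, where the background was 19.7%, and against PNKP1i 15 of 33, where the background was 21.5%. Leaving out the 7 members with no combination library over the filter's minimum, these were 20 and 14 of 26. In both, 0 members were called higher, where the background was 22.7% against TH10785 and 24.4% against PNKP1i, none was higher at an unadjusted p under 0.05, and DESeq2 and limma-voom called 0 higher. H1-2 fell by 1.78 (SE 0.208) against TH10785 and by 1.51 (SE 0.206) against PNKP1i. H2BC12 fell by 1.70 (SE 0.149) and 1.36 (SE 0.148) in the same comparisons. H2AC20, which the combination did not separate from DMSO, fell by 1.38 against TH10785 (SE 0.325, edgeR adjusted p = 0.003385), with 2.32, 5.57 and 2.44 CPM with both compounds and 8.09, 7.76 and 10.99 CPM with TH10785. Each of these comparisons shares the combination libraries with the one against DMSO.

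The interaction asks whether the effect of 1 compound differs with and without the other, taken as the log2 difference of the combination from DMSO less those of both single compounds. It was called in 16 of 33 members, all of them lower, where the background was 14.1% of all tested genes for lower and 16.5% for higher, and in 15 of 26 without those 7 members. H1-2 had an interaction of -1.68 (SE 0.287, edgeR adjusted p = 0.00424) and H2BC11 of -1.91 (SE 0.314, edgeR adjusted p = 0.00359). H2AC20, at -2.21 (SE 0.466, edgeR adjusted p = 0.00621), had log2 differences from DMSO of 1.43 with TH10785, 0.83 with PNKP1i and 0.05 with both, none of them called. H4C11, at -2.78 (SE 0.696, edgeR adjusted p = 0.0101), had the largest value of the members called, on few reads. H2BC6, which fell with both compounds, was not called for the interaction (-0.25, SE 0.580, edgeR adjusted p = 0.772), and its SE is wide. Its log2 differences from DMSO were -0.91 with TH10785, -0.69 with PNKP1i and -1.85 with both.

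Many H2A and H2B genes lie head to head, with starts a short distance apart and transcription running outward from a shared promoter region. By annotated starts there were 11 head-to-head pairs of members within 1000 bases, and 4 had both members tested. Of the 11, 10 joined an H2A and an H2B gene and 1 an H3 and an H2B gene. The latter, H3C12 and H2BC17, is not a separate site: H2BC17 is also paired with H2AC17, whose exons H3C12 overlaps. In the pair H2BC4 and H2AC6, 218 bases apart, both genes fell, by 1.73 and 1.31. In the pair H2BC8 and H2AC8 both fell as well, but neither was called without combination replicate 1. H2AC8 also had no combination library over the filter's minimum. H2BC11 and H2AC11, 291 bases apart, both fell but by different amounts: the level of H2AC11 was 36.2, 28.6 and 43.4% of that of H2BC11 with both compounds, against 14.7, 13.9 and 19% with DMSO, without overlap. With TH10785 this ratio was 15.1, 14.4 and 11%, and with PNKP1i 14.1, 16 and 15.6%, close to the DMSO values.

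The pair of H2BC21 and H2AC20 on chromosome 1 differed most. Their annotated starts are 322 bases apart, and their promoter windows share 265 bases read from opposite strands, so the H2BC21 window printed above holds most of the H2AC20 window too. With both compounds H2BC21 fell by 1.59 while H2AC20 stood at 0.05. The level of H2AC20 was 8.82, 14.7 and 5.88% of that of H2BC21 with both compounds and 5.01, 2.18 and 2.39% with DMSO. It was also above every DMSO library with TH10785 (6.94, 7 and 8.78%) and with PNKP1i (8.66, 6.91 and 5.22%). These ratios come from genes of unequal annotated length and are compared between groups only. The pairs were picked out after their values had been seen, and their differences were not tested; 3 libraries against 3 cannot give an exact permutation p under 0.1.

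**Figure D4:**
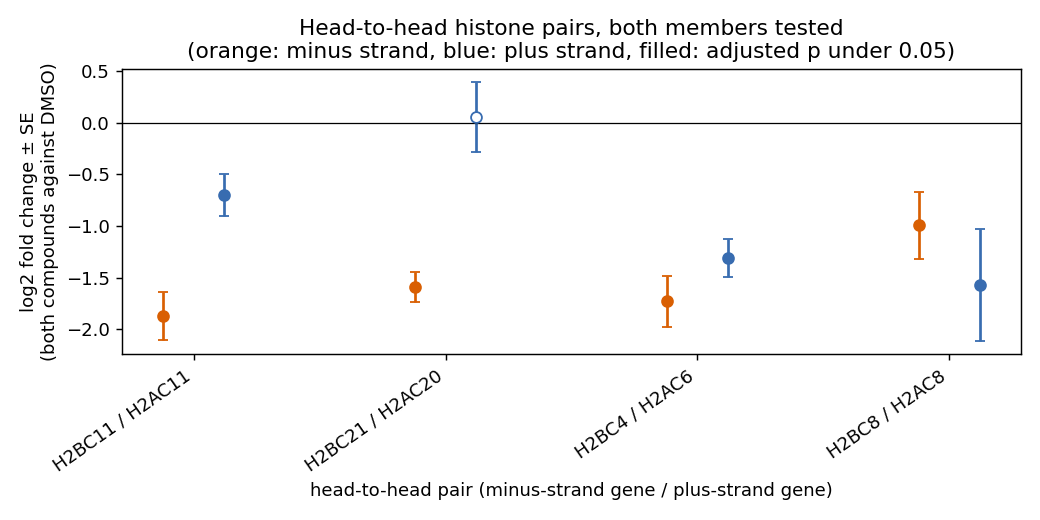
Log2 fold change with its standard error for both compounds against DMSO in the 4 head-to-head pairs with both members tested, the minus-strand gene in orange and the plus-strand gene in blue; filled points have an adjusted p under 0.05. H2BC21 lies at -1.59 and its neighbour H2AC20 at 0.05, whereas both members of the other 3 pairs are filled and below 0. H2AC8 had no combination library over the filter's minimum.

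Members called lower with both compounds lay in all 3 genomic clusters, where 19.7% of all tested genes were called lower. In the chromosome 6 cluster between chr6:25726132 and 26285638, 9 of 16 tested members fell, with a median log2 fold change of -1.14. In the chromosome 6 cluster between chr6:27125897 and 27893843, 5 of 10 fell, with a median of -0.90, and in the chromosome 1 cluster 4 of 7, with a median of -1.465. By annotated transcript, 11 of 13 tested members with more than 200 bases after the stem-loop fell, 4 of 7 with fewer, and 3 of 13 without a stem-loop in the annotation, a share near that of all tested genes, with medians of -1.31, -1.54 and -0.59. The class with fewer bases includes H2AC8, H2AC18 and H2AC19, which had no combination library over the filter's minimum. H2AC8 and H2AC19 are among its calls, and its median is the value of H2AC18. H2AC18 and H2AC19 are also in the chromosome 1 cluster, and H2AC19 is among the calls there. H2AC4, H2AC14, H4C1 and H4C3, without a stem-loop in the annotation, had no such library either. The classes also differ in counts, and the differences between them were not tested.

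Other genes of the pathway were counted from lists chosen by their roles, to be read against the 21.3% of all tested genes called higher and 19.7% called lower with both compounds. Among 12 factors of histone gene transcription and S-phase entry, with both compounds 1 rose and 5 fell, with a median of -0.09. E2F2 and E2F1, activators of S-phase genes, fell by 1.05 (SE 0.202) and 0.76 (SE 0.165), and CDC25A, the phosphatase that activates CDK2, CDK2 itself and CCNE1, its cyclin, fell by 0.43, 0.41 and 0.41. CASP8AP2, a component of histone locus bodies, rose by 1.19 (SE 0.394, edgeR adjusted p = 0.0235). With offsets for GC content and length, 0 genes of this list were called higher, so CASP8AP2 was no longer called. NPAT averaged 7.27 ± 1.60 CPM with both compounds and 4.75 ± 1.12 CPM with DMSO (SD, n = 3 each), which was not called (0.615, SE 0.363, edgeR adjusted p = 0.187). NPAT was called higher in the combination against TH10785 (1.03, SE 0.371, edgeR adjusted p = 0.0333) and against PNKP1i (1.40, SE 0.378, edgeR adjusted p = 0.00652). NPAT had 0.999 CPM in the lowest TH10785 library and 5.09 in the highest.

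In the list of 3' end formation, translation and decay of histone messenger RNA, 6 of 22 genes rose and 4 fell with both compounds, with a median of 0.12, both counts near the shares over all tested genes. With offsets for GC content and length, 5 rose and 5 fell. SLBP averaged 60 ± 7.81 CPM with both compounds, against 61.1 ± 7.12 CPM with DMSO (SD, n = 3 each), a difference of -0.03 (SE 0.121, edgeR adjusted p = 0.883). ERI1, an exonuclease that trims the histone stem-loop, rose by 1.12 (SE 0.200), and TUT7, a terminal uridylyltransferase acting in histone mRNA decay, by 1.10 (SE 0.264). UPF1, a helicase required for that decay, fell by 0.67 (SE 0.126), and SYMPK, the scaffold of the cleavage complex, by 0.66 (SE 0.133). SNRPE, a core protein shared by spliceosomal and U7 particles, rose by 0.81 (SE 0.141).

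Replication-independent histone variants are mostly made from polyadenylated RNA throughout the cell cycle. Of 11 tested, 6 fell with both compounds and 5 were not called, with a median of -0.45, where 19.7% of all tested genes were called lower. H2AX, the variant phosphorylated at DNA breaks, fell by 1.32 (SE 0.166, edgeR adjusted p = 2.53e-05). It was kept in this list but is not strictly replication-independent, as it also gives stem-loop transcripts. H1-10, a linker variant, fell by 1.05 (SE 0.159). MACROH2A1, H3-3A and H2AZ2 fell by 0.52, 0.59 and 0.46. The variants H2AZ1 (0.06, SE 0.147) and H3-3B (0.10, SE 0.115) were not called. H4-16, an H4 gene outside the symbol rule, was not called (-0.26, SE 0.251).

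Among 21 histone chaperones, which carry new histones to DNA, 2 rose and 8 fell with both compounds, with a median of -0.15, beside 21.3% higher and 19.7% lower of all tested genes. ASF1B, a chaperone of H3 and H4 in proliferating cells, fell by 1.09 (SE 0.151), and CABIN1 and TONSL by 0.52 and 0.60. The large subunit of chromatin assembly factor 1, CHAF1A, fell by 0.37 (SE 0.120). HAT1, which acetylates new H4, rose by 0.98 (SE 0.255), and SUPT16H, a subunit of the FACT complex, by 0.46 (SE 0.180). Among 31 genes of DNA replication and nucleotide supply, 2 rose and 14 fell, with a median of -0.27, beside the same shares. TK1 (thymidine kinase) fell by 1.01 (SE 0.191), LIG1 (the ligase of lagging strands) by 0.81 (SE 0.133) and RRM2 (a ribonucleotide reductase subunit) by 0.79 (SE 0.116), whereas the clamp loader subunits RFC3 and RFC4 rose by 0.50 and 0.40. With offsets for GC content and length, the counts of genes higher and lower became 1 and 4 for chaperones and 0 and 13 for DNA replication, and 0 and 6 for the transcription and S-phase entry list. With TH10785 and with PNKP1i alone, edgeR called 0 of the 98 tested genes of all these lists, H4-16 included. At an unadjusted p under 0.05, 6 were higher and 3 lower with TH10785, and 5 were higher and 2 lower with PNKP1i. Over all 17290 tested genes, 2445 were under that limit with TH10785 and 1957 with PNKP1i, in either direction.

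**Figure D5:**
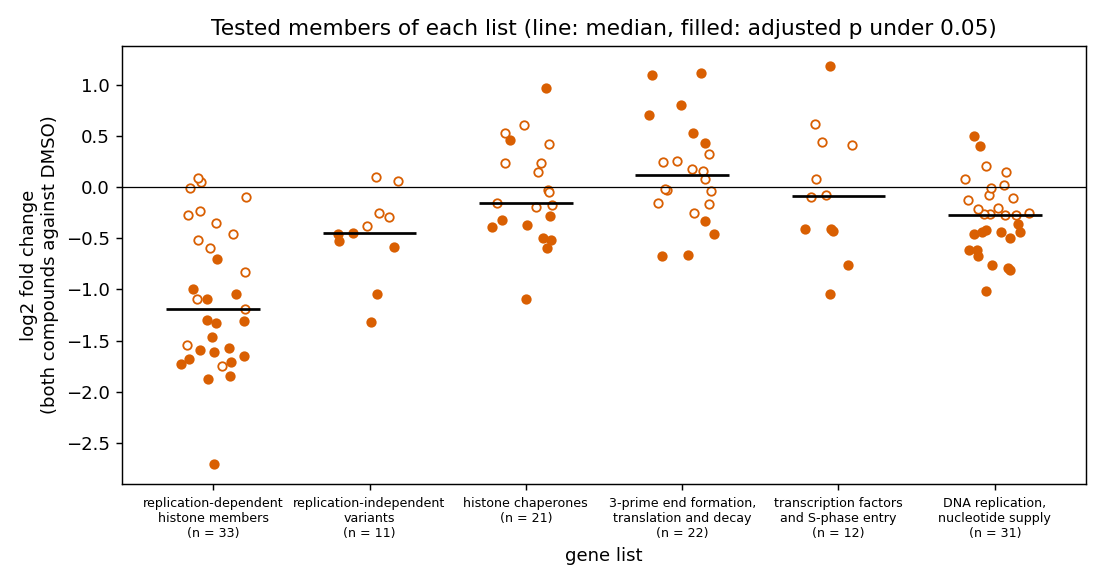
Log2 fold change with both compounds against DMSO of the tested members of the replication-dependent histone genes and of 5 related lists (points, filled for an adjusted p under 0.05, line at the median, horizontal scatter for legibility). The median is -1.19 for the replication-dependent members, -0.45 for the replication-independent variants and between -0.27 and 0.12 for the other lists.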

How the data were processed

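The members and gene lists were chosen with earlier results of these data known. Extraction used TRIzol and library construction the NEBNext Ultra RNA kit, read as 150-bp pairs, per the labels' protocols. HISAT2 2.0.5, HTSeq 0.6.1, DESeq2 1.30.1 and GRCh38 are named per the submitters' processing notes; the annotation, the use of strand and the treatment of reads with several matches are not given in the sources used here. The authors deposited raw read counts for 58735 genes, and a normalized signal for 35754 genes that the authors' values show to be counts divided by 1 factor per library, used here only as an alternative scaling. The labels do not say that replicates came from separate cultures, so p-values measure the spread between samples, which may be technical. Replicates differed beyond sampling noise (chi-square per gene 3.02 to 36.5), and each library counted as 1 sample.

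Counts were tested with edgeR 4.0.16 (R 4.3.3): filterByExpr (minimum count 10, minimum total 15), TMM, robust quasi-likelihood fit of 4 group means over 12 libraries, two-sided F tests, Benjamini-Hochberg over 17290 genes. Errors of fold changes are standard errors (SE). Family sums and ratios were described without a test. Positions, transcripts and stem-loops came from GENCODE 29, whose identifiers match the table. The script was tested on simulated data. Alternatives were RLE and upper-quartile scaling, other filters, a replicate block, GC and length offsets (splines with 5 degrees of freedom), only the groups compared, limma-voom (limma 3.58.1), DESeq2 1.42.0, each library left out, and, added after the data were seen, HIST1H3B in the H3 sum. Genes named with values were the 4 most counted tested members of each family, the 3 with the smallest p for the combination, every member called, and from each list the 5 with the smallest p, those called against their list's direction, SLBP and NPAT; others were chosen after their values were seen.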

Additional observations from a re-analysis of the deposited data

Results flagged for a closer look

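In 16 of 33 histone members the effect of PNKP1i with TH10785 present differed from its effect without it, by the edgeR interaction term at an adjusted p under 0.05. The background for a lower interaction was 14.1% of all tested genes. The values on the log2 scale, all lower in the combination than the single effects add up to, were -1.68 for H1-2 and -1.3 for H1-4 in the H1 family. In the H2A family they were -1.59 for H2AC6, -2.21 for H2AC20 and -2.04 for H2AC4. H2BC12 had -1.41, H2BC21 -1.42, H2BC11 -1.91, H2BC5 -0.96 and H2BC4 -1.07. H3C10 had -1.31 and H3C1 -1.6. In the H4 family the values were -1.33 for H4C9, -1.08 for H4C8, -1.95 for H4C15 and -2.78 for H4C11. H2AC4, H4C11 and H4C15 rest on 3 to 28 counts per library, and H2AC4 had no combination library over the filter's minimum. Of the 16, 11 remained called in every alternative run that gave a value. H1-4 and H2AC4 were not called with GC and length offsets. H2BC5, H2BC4 and H4C15 were lost when some single libraries were left out.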

How the results depend on the processing

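For the combination against DMSO, against TH10785 and against PNKP1i, and for the interaction, the number of members called kept within 1.5 times its value in every alternative run; 12 of the 18 members called lower against DMSO remained called in all of them that gave a value. Leaving out single libraries moved that count between 12 and 19. With TH10785 against DMSO, 1 member was called higher with no filter on low counts, with offsets for GC and length, with the replicate block and those offsets, with only the groups compared and with DESeq2, and 0 to 1 when single libraries were left out; it was H2AC20. With PNKP1i, 2 members were called higher with only the groups compared. H2BC4 was the 1 member called lower with PNKP1i with no filter, with offsets for GC and length and with only the groups compared (0 to 1 when single libraries were left out). Without the highest member of a family, the log2 ratio with TH10785 was 0.651 for H1 and 0.724 for H3, with PNKP1i 0.177 for H3, and with both compounds -0.572 for H1, -0.607 for H2A, -0.548 for H3 and -1.203 for H4. That alternative removes most of the counts of each family. The H1 ratio with both compounds ran from -1.953, without combination replicate 2, to -1.362, without replicate 1. The H3 ratio with PNKP1i, -0.231 with all members, thus changed sign, and the H2A ratio with PNKP1i ran from -0.191 to 0.020 when single libraries were left out. With HIST1H3B added, the H3 ratio was 0.217 with TH10785, -0.202 with PNKP1i and -1.377 with both. Replicate numbers did not pair the samples: same-numbered libraries of different groups had correlations of their deviations from -0.255 to 0.125, with 1 of 18 over 0.1. With the replicate block, 18 members were called lower with both compounds against DMSO. Members with few counts, or with sequence shared between copies, are limited by depth and by read assignment.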
